A study of Mus musculus with 16 samples.

Results

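Lines 2883 and 2641 are cultures of T-cell acute lymphoblastic leukaemia (T-ALL) from mice, and the prednisone-resistant derivative of each was compared with the parental culture of the same line. These 4 libraries, of 16 in all, were chosen by their labels alone: they are the 2 pairs in which a line was profiled both before and after resistance to prednisone. Both lines carry the Mcm2cre/cre genotype, in which Cre inserted at Mcm2, a subunit of the replication helicase, lowers its expression, and the parental cultures carry it as well. The leukaemias came from thymus and the cells were grown in DMEM with fetal bovine serum. The parental cultures are labelled as treated with PBS. The sources used here do not give the dose, the time in drug or whether a derivative is 1 clone. Each culture is 1 library, so a ratio within a line has no replicate check, and p-values come only from a model over all 16 libraries.

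Prednisone is a prodrug that the reductase Hsd11b1 converts to prednisolone. Prednisolone binds the glucocorticoid receptor, the product of Nr3c1, which waits in the cytoplasm in a complex with Hsp90 and its co-chaperones, then moves to the nucleus and switches genes on or off. In immature T cells this programme raises the killer protein Bim (Bcl2l11) and represses survival genes, and the cells die by mitochondrial apoptosis, which Bcl2 opposes. Glucocorticoids are for this reason a mainstay of the treatment of T-ALL, and reduced receptor and raised Bcl2 are known routes to resistance.

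Depth was 12142000 and 13291000 reads in the parental libraries of 2883 and 2641 and 17194000 and 18956000 reads in their derivatives, so the derivatives were deeper in both pairs, and the part of depth in the results was not tested. Mitochondrial transcripts took 3.45% to 4.01% of reads. All 13 T cell markers have a row in the table. From 11 to 13 of them reached 1 CPM (reads scaled to the depth of the library) in each library, with a summed level of 4710 to 5061 CPM. Those under 1 CPM in some library were Cd5, Trbc1 and Trac, the constant gene of the T cell receptor alpha chain, which was at 0.15 to 1.73 CPM. Of the 8 B cell markers, Cd79b and Ighm have rows and summed to 37.4 and 71.6 CPM in the parental library and derivative of 2883 and to 168 and 341 CPM in those of 2641. Gzma and Eomes, the NK cell markers with rows, summed to 120 and 36.4 CPM in 2883 and to 1571 and 1252 CPM in 2641. Mcm2 was at 96.8 and 103 CPM in 2883 and at 82.3 and 95.4 CPM in 2641.

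A gene was called higher or lower in a line when its CPM differed at least 2-fold, with at least 1 CPM in the higher library. A library with under 3 reads was set to 3 reads for this call. In line 2883, 1092 of 12514 measured genes were higher in the derivative (8.73%) and 760 were lower (6.07%). In line 2641, 492 of 12238 were higher (4.02%) and 1082 were lower (8.84%). Among the 11910 genes measured in both lines, 136 were higher in both (1.14%), 175 were lower in both (1.47%) and 219 went in opposite directions (1.84%). The shared genes made up 16.2% of the genes higher in 2883 and 31.9% of those higher in 2641, and 29.3% and 18.2% of those lower. Across genes, which are not independent replicates, the log2 ratios of the lines had a Pearson r of 0.124 and a Spearman rho of 0.082. The pairs share no library. In limma, over 9309 genes tested, prednisone against parental gave 2 genes with an adjusted p under 0.05 (0.0215%), 1 higher and 1 lower (0.0107% each way). An unadjusted p under 0.05 was reached by 853 genes (9.16%).

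**Figure D1:**
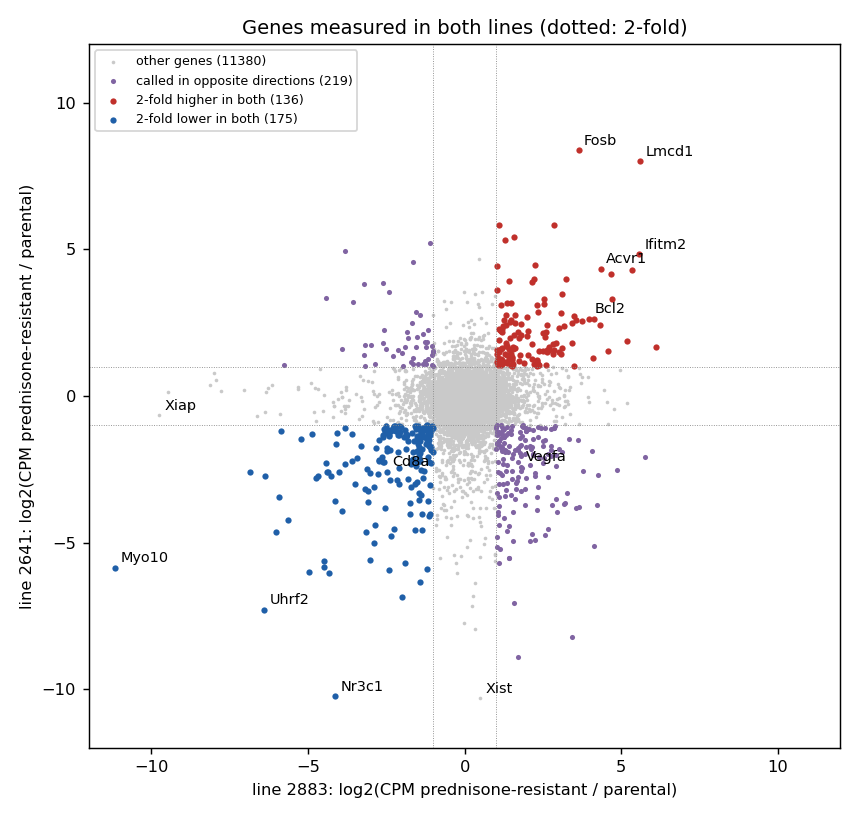
Each point is 1 of 11910 genes, with the log2 ratio of CPM (derivative over parental) in line 2883 on the x axis and in line 2641 on the y axis, and with libraries under 3 reads set to 3. Red and blue points are the 136 and 175 genes at least 2-fold higher or lower in both lines, and purple points are the 219 that went in opposite directions. Nr3c1 lies at the lower left and Lmcd1 and Ifitm2 at the upper right.

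Nr3c1, the glucocorticoid receptor gene itself (mm10 chromosome 18, 39410545 to 39519422, minus strand), had the smallest limma p of all genes that were lower. It was at 327 CPM in the parental library of 2883 and 18.5 CPM in the derivative (3966 and 318 reads), and at 638 CPM in the parental library of 2641 and 0.528 CPM in the derivative (8484 and 10 reads). These are 17.7-fold and 1210-fold lower levels. The 12 libraries outside these pairs ranged from 170 to 1123 CPM, so neither derivative overlapped any other library. In limma, on log2(FPKM + 1), the change was -2.31 ± 0.26 (SE), with a Benjamini-Hochberg adjusted p of 0.0346. The call was lost in 17 of 25 alternatives, and the direction in none. The adjusted p was 0.771 without the term per line, 0.108 on log2(CPM + 1), 0.169 with no filter and 0.0575 with the Mcm2cre/cre lines alone. When libraries were left out in turn, the adjusted p in limma ran from 0.0319 to 0.147, and was 0.147 and 0.129 without the prednisone-resistant library of 2883 and of 2641.

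The genes around Nr3c1 did not fall with it. Within 2 Mb of its start, 17 other genes measured in line 2883 had a median log2 ratio of 0.26, with 5 higher and 1 lower, and 18 in line 2641 a median of 0.06, with 3 higher and 3 lower. Yipf5, a Golgi membrane protein gene, had 1343 and 1346 reads in 2883 and 666 and 1190 in 2641. Arhgap26, a GTPase-activating protein gene, had 1438 and 649 reads in 2883 and 525 and 1840 in 2641 and was called lower in the first line and higher in the second.

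**Figure D2:**
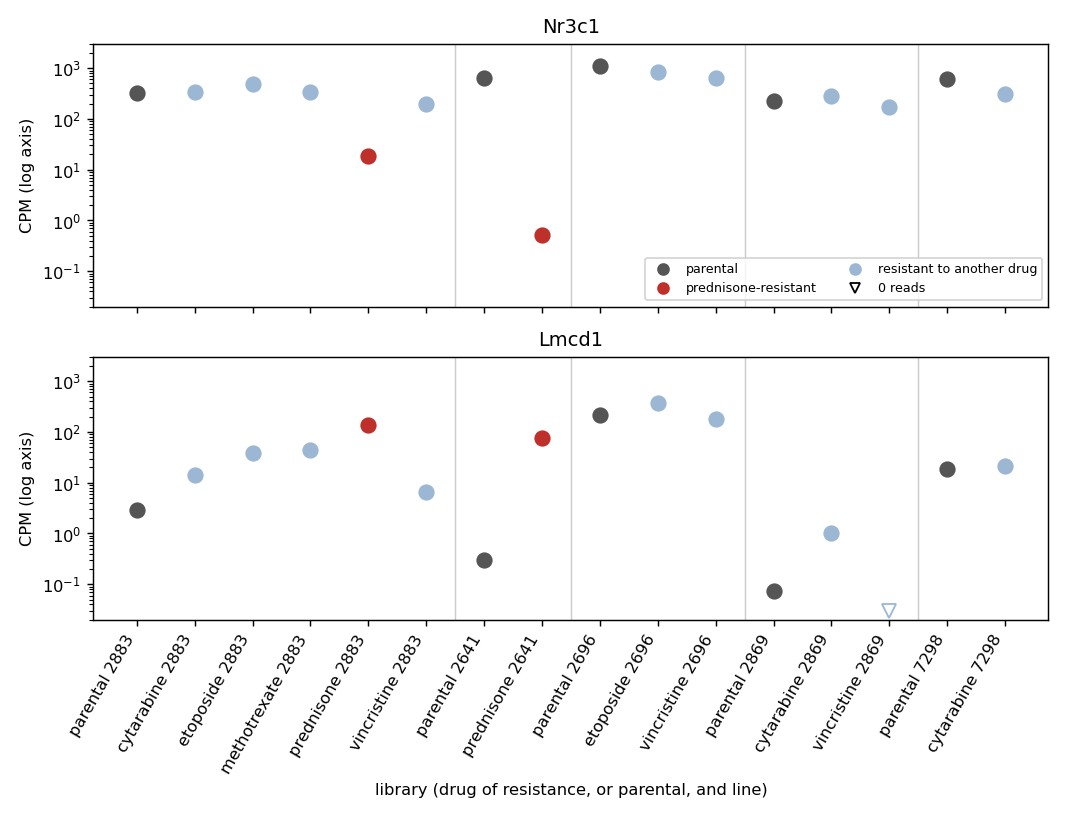
CPM on a log axis of Nr3c1 (top) and Lmcd1 (bottom) in each of the 16 libraries, ordered by line with the parental library (grey) first. The prednisone-resistant libraries (red) hold the 2 lowest Nr3c1 values, 18.5 and 0.528 CPM, whereas their Lmcd1 values of 139 and 76.9 CPM lie below those of line 2696, at 177 to 375 CPM. The open triangle is a library with 0 reads.

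Lmcd1 (mm10 chromosome 6, 112273758 to 112330426, plus strand), which encodes a LIM domain protein known to restrain GATA factors and to act with calcineurin in muscle, had the smallest limma p of all genes tested. It went from 2.88 to 139 CPM in line 2883 (35 to 2396 reads) and from 0.301 to 76.9 CPM in line 2641 (4 to 1457 reads). The ratios were 48.3 (95% counting interval 34.7 to 69.6) and 255 (99.5 to 939). In limma the change was 1.46 ± 0.14, with a Benjamini-Hochberg adjusted p of 0.0193. It was called in limma in 14 of 25 alternatives. The adjusted p was 0.968 without the term per line, 0.0610 on log2(CPM + 1) and 0.0575 with the Mcm2cre/cre lines alone. Without the prednisone-resistant library of 2883 it was 0.326, and over all libraries left out in turn it ran from 0.0184 to 0.326.

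Lmcd1 was not low everywhere else. The parental library of line 2696 had 221 CPM, above both derivatives, and the other derivatives of 2883 had 6.58 CPM (vincristine) to 44.7 CPM (methotrexate). The 27 other genes measured within 2 Mb in line 2883 had a median log2 ratio of 0.03, and the 26 in line 2641 one of -0.03. The antisense gene 5031434C07Rik, which starts inside Lmcd1, went from 0 to 31 reads in 2883 and from 0 to 241 in 2641. The library kit marks strand, but whether the counting used it is not given, so its reads cannot be told apart from those of Lmcd1.

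The sequences upstream of Lmcd1, Dusp1 and Bcl2, which encode a LIM protein, a phosphatase and a survival factor, are shown. They are examples of genes higher in both derivatives. Each is the 250 bases before the RefSeq start on GRCm38.p6, read 5′ to 3′ on the gene's strand, at chr6:112273508-112273757 (plus), chr17:26508473-26508722 (minus) and chr1:106714291-106714540 (minus). Capitals mark the letters TGACGTCA, the cyclic AMP response element.
Lmcd1: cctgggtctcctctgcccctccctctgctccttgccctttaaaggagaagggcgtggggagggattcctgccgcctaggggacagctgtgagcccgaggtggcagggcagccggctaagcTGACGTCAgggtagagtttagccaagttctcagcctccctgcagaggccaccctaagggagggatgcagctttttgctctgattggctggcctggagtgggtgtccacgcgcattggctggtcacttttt
Dusp1: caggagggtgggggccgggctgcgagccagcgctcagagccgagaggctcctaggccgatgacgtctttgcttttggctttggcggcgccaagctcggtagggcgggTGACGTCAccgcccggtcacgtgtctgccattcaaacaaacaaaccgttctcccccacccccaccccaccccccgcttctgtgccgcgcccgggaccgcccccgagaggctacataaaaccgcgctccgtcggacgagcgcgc
Bcl2: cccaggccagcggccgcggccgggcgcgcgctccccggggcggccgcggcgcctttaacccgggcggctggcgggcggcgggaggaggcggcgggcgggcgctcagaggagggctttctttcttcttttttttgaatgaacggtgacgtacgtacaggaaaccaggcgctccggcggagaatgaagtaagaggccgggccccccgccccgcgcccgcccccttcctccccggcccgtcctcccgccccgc
Lmcd1 and Dusp1 hold that motif and Bcl2 does not. The windows of Ifitm2, Uaca and Txnip, also higher in both derivatives, were searched but are not printed, and do not hold it. The motif occurs in 1.62% of the 27025 upstream windows of this length. It occurs in 2 of the 91 windows of genes higher in both lines (2.2%), those of Lmcd1 and Dusp1. This stands beside 2.86% of the 9613 windows matched to genes of the table. The glucocorticoid response element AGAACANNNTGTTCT, the shorter AGAACA, which it contains, and the AP-1 letters TGANTCA were searched on both strands too. None of these occurs in the 3 windows shown or in those of Ifitm2, Uaca and Txnip. These 3 motifs occur in 0.0037%, 16.2% and 6.87% of all windows. A match describes these letters in this window only.

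The machinery around the receptor changed little. None of 16 genes of the chaperone cycle was 2-fold higher or lower in either line, beside 14.8% and 12.9% of all measured genes in 2883 and 2641. Their median log2 ratios were -0.07 in 2883 and 0.06 in 2641. Hsp90aa1, the inducible Hsp90, was 1.41-fold and 1.33-fold lower, whereas Hsp90ab1, the constitutive form, was at 3115 and 3058 CPM in 2883 and at 3029 and 4149 CPM in 2641. Fkbp5, an inhibitory co-chaperone and a classic receptor target, was at 848 and 916 CPM in 2883 and at 451 and 436 CPM in 2641. Ppp5c, a phosphatase of the complex, was 1.20-fold and 1.31-fold higher and was the only member with an unadjusted limma p under 0.05 (0.0232).

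Of 19 coregulators of the receptor, 1 was called in 2883 and none in 2641, beside 14.8% and 12.9% of all measured genes. Nrip1, a corepressor of nuclear receptors, was at 72.4 and 165 CPM in 2883 (2.28-fold higher) and at 132 and 262 CPM in 2641 (1.99-fold higher, just under the limit). Its unadjusted limma p was 0.00911, and its adjusted p was 0.488. Ncoa3, a coactivator, was 1.84-fold higher in 2883 and at 0.997 times the parental level in 2641. The corepressor Ncor1 and the acetyltransferase Ep300 differed by less than 1.5-fold in both lines.

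Of 7 measured genes of steroid receptors and drug handling, 1 apart from Nr3c1 was called in 2883 and none in 2641. Of all measured genes, 14.8% and 12.9% were called. Hsd11b1, which activates prednisone, was at 1.32 and 2.38 CPM in 2883 and at 4.89 and 5.38 CPM in 2641. Nr3c2, the mineralocorticoid receptor, which also binds glucocorticoids, was 2.02-fold higher in 2883 (9.64 and 19.5 CPM) and 0.828 times the parental level in 2641 (11.7 and 9.65 CPM). None of 3 efflux pump genes was called. Abcb1a was at most 0.249 CPM in these 4 libraries, Abcb1b was 1.18-fold and 1.38-fold lower, and Abcc1 was at 17.0 and 16.4 CPM in 2883 and at 31.6 and 39.2 CPM in 2641, a ratio of 1.24 (95% counting interval 1.10 to 1.40).

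Genes that glucocorticoids are known to induce were called in both directions. Of 26 measured members, 5 were higher and 2 lower in the derivative of 2883, and 5 were higher and 7 lower in that of 2641, with median log2 ratios of 0.09 and -0.17. Over all measured genes, 8.73% were higher and 6.07% lower in 2883 and 4.02% and 8.84% in 2641. Whether the drug was present at harvest is not given in the sources used here. None of the 19 members tested in limma had an unadjusted p under 0.05. Over all measured genes the medians were 0.058 and -0.044.

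Dusp1, a phosphatase that switches off MAP kinases, and Txnip, an inhibitor of thioredoxin and glucose uptake, were higher in both lines. Dusp1 was at 4.04 and 17.8 CPM in 2883 (4.41-fold) and at 4.59 and 15.7 CPM in 2641 (3.41-fold). Txnip was at 3.29 and 16.9 CPM in 2883 (5.12-fold) and at 67.2 and 144 CPM in 2641 (2.14-fold). Both derivatives lay within the range of the other 12 libraries, which reached 34.2 CPM for Dusp1 and 218 CPM for Txnip. Of the 9 derivatives resistant to other drugs, 5 had Dusp1 at least 2-fold higher than their own parent and none had it lower. Txnip was at least 2-fold higher in 3 of them, all of line 2883, and lower in 2.

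Other genes commonly used as readouts of the receptor differed in direction or in size between the lines. Tsc22d3 (GILZ), a widely used target, was 1.26-fold higher in 2883 and 2.17-fold lower in 2641. Ddit4, an inhibitor of mTORC1, was 1.17-fold higher in 2883 and 5.96-fold lower in 2641, where it went from 326 to 54.7 CPM. Sgk1, a kinase of ion transport, was 4.87-fold lower in 2883 and 1.76-fold lower in 2641.

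Per1, a clock gene, was 1.75-fold higher in 2883 and at 0.950 times the parental level in 2641. Il7r, the interleukin-7 receptor, was 2.01-fold lower in 2883 and 2.81-fold higher in 2641. Zfp36l2, an RNA-binding protein that destabilises mRNA, was 2.08-fold higher in 2883 and 6.09-fold lower in 2641. The metallothioneins Mt1 and Mt2 had 7.30 and 1.05 CPM in the parental library of 2641 and 0 reads in its derivative, and were 0.584 and 0.563 times the parental level in 2883.

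**Figure D3:**
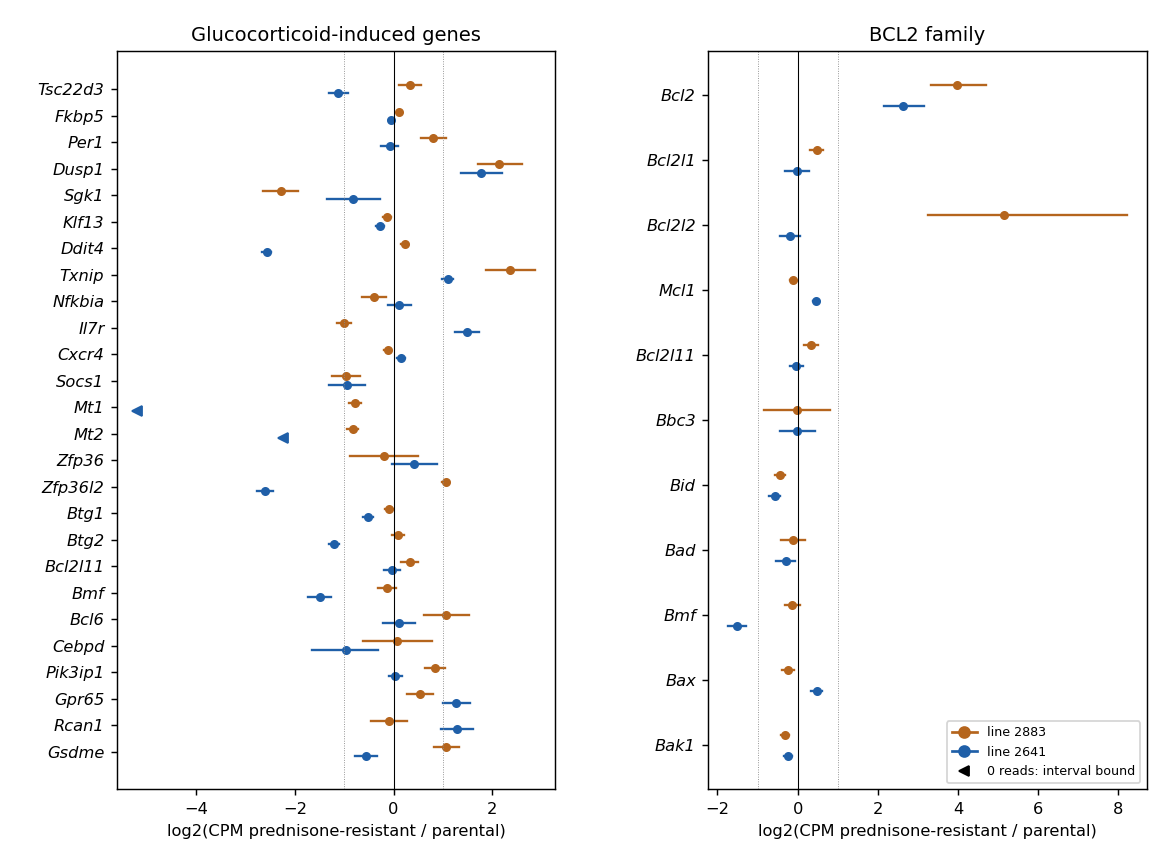
Log2 ratio of CPM (derivative over parental) of the measured glucocorticoid-induced genes (left) and BCL2 family genes (right) in line 2883 (brown) and line 2641 (blue), with 95% exact binomial intervals that cover counting error only. Triangles mark the interval bound where the derivative had 0 reads, and dotted lines mark 2-fold. Bcl2, Dusp1 and Txnip lie to the right of 2-fold in both lines.

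Of 4 survival and 7 killer genes of the BCL2 family measured in both lines, 1 was higher in both, beside 1.14% of all genes. Bcl2 (mm10 chromosome 1, 106538178 to 106714275, minus strand), which blocks the killer proteins Bax and Bak at the mitochondrion, was at 1.65 CPM in the parental library of 2883 and 25.8 CPM in the derivative, a ratio of 15.7 (95% counting interval 10.0 to 25.9). In line 2641 it went from 2.86 to 17.7 CPM, a ratio of 6.20 (4.42 to 8.92). Bcl2 was below the FPKM filter of limma, since the deposited FPKM divides by the whole gene span, and so it has no p-value in that fit. Bcl2 was also high in other libraries. The etoposide-resistant and cytarabine-resistant derivatives of 2883, set against the same parental library, had 27.6 and 16.1 CPM, and line 2696 had 61.0 to 68.2 CPM.

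Of the other survival members, 1 was called higher in 2883 and none in 2641, beside 8.73% and 4.02% of all genes. Mcl1 was at 0.919 and 1.37 times the parental level, and Bcl2l1, which encodes Bcl-xL, at 1.39 and 0.990 times. Bcl2l2, which encodes Bcl-w, was called higher in 2883, from 0.165 to 5.82 CPM (2 to 100 reads), a ratio of 35.3 (95% counting interval 9.52 to 296), and went from 18.3 to 16.0 CPM in 2641. Of 7 measured killer members, none was called in 2883 and 1 in 2641, beside 14.8% and 12.9% of all genes. Bcl2l11 (Bim), the main killer of the glucocorticoid response, was at 35.7 and 44.7 CPM in 2883 and at 37.2 and 36.3 CPM in 2641. Bmf, a killer protein of the same subgroup, was at 38.0 and 34.8 CPM in 2883 and went from 36.7 to 13.0 CPM in 2641, 2.83-fold lower. Bbc3 (Puma) was at 0.983 and 0.995 times the parental level, and Bax at 0.849 and 1.39 times.

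Xiap (mm10 chromosome X, 42059679 to 42109657, plus strand), which encodes an inhibitor of the executioner caspases, had 1848 reads in the parental library of 2883 (152 CPM) and 0 reads in the derivative, at least 872-fold lower against a limit of 3 reads. In line 2641 it went from 181 to 114 CPM, 1.59-fold lower. The 12 libraries outside these pairs had 102 to 173 CPM, so 1 library of 16 lacked the transcript. The flanking genes Thoc2 and Stag2 had 2975 and 4062 reads and 4850 and 5782 reads in line 2883, and neither was called. Of the 18 core apoptosis genes measured in 2883 and 19 in 2641, 2 were lower in each line and none was higher, beside 6.07% and 8.84% of all genes lower. Among the others were Fas, the death receptor, in 2883 and the kinase Ripk3 in 2641, which were chosen after their values were seen.

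Among the other genes higher in both lines, by the rule of the largest smaller ratio, were a set of membrane, signalling and structural genes. Ifitm2, an interferon-inducible restriction factor, was at 0.329 and 15.8 CPM in 2883 (47.8-fold) and at 0.527 and 15.1 CPM in 2641 (28.6-fold). In limma its change was 2.98 ± 0.57, with an unadjusted p of 0.000498 and an adjusted p of 0.388. Line 2696 had more of it, up to 58.1 CPM.

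Uaca, an apoptosis-related ankyrin protein gene, was at 18.0 and 240 CPM in 2883 (13.3-fold) and at 80.2 and 475 CPM in 2641 (5.92-fold), with a limma change of 1.83 ± 0.37 (unadjusted p 0.000761, adjusted p 0.391). Acvr1, a receptor for bone morphogenetic proteins, was 20.3-fold and 20.1-fold higher. Apobr, a lipoprotein receptor gene, was 39.5-fold and 9.82-fold higher, from under 1 CPM in both parental libraries. B3gnt6, a glycosyltransferase, was 9.52-fold and 47.7-fold higher, and Serpinf1, a secreted serpin, 11.4-fold and 6.68-fold higher. Col20a1, a collagen gene, went from 0 reads to 4.30 CPM in 2883 and was 6.18-fold higher in 2641. Such rises occurred in other derivatives too. In the 9 derivatives resistant to other drugs, B3gnt6 and Col20a1 were at least 2-fold higher in 6 each and Serpinf1 in 4. Acvr1 and Uaca were higher in 3 each, and Apobr in 2. Serpinf1 was at least 2-fold lower in 2, and Acvr1, B3gnt6 and Apobr in 1 each. The etoposide-resistant, cytarabine-resistant and vincristine-resistant derivatives of 2883 had 19.5, 23.0 and 27.5 CPM of Acvr1.

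The genes most reduced in both lines included several that were silent in one or both derivatives. Myo10, an unconventional myosin of filopodia, went from 400 CPM to 0 reads in 2883, at least 2290-fold lower, and from 33.8 to 0.580 CPM in 2641, 58.2-fold lower. Uhrf2, a reader of modified DNA and histones, went from 14.8 and 24.7 CPM to 0 reads in both. Kit, the stem cell factor receptor of early progenitors, went from 8.73 and 3.01 CPM to 0 reads in both, and so did Rapgef5, a guanine nucleotide exchange factor, and Kcnk5, a potassium channel.

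Such losses were not confined to the prednisone-resistant cultures. Uhrf2 and Myo10 were also at 0 reads in some of the other 12 libraries, Kit, Rapgef5 and Kcnk5 likewise, and each of these genes reached at least 28.2 CPM in another. Dnajc6, which encodes auxilin, was 64.8-fold and 24.7-fold lower, Plaat3, a phospholipase, 34.0-fold and 49.7-fold lower, and Ckb, brain creatine kinase, 8.90-fold and 74.2-fold lower. Auts2, a chromatin-associated gene, was 8.18-fold lower in 2883 and went from 7.60 CPM to 0 reads in 2641, at least 48.0-fold lower.

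**Figure D4:**
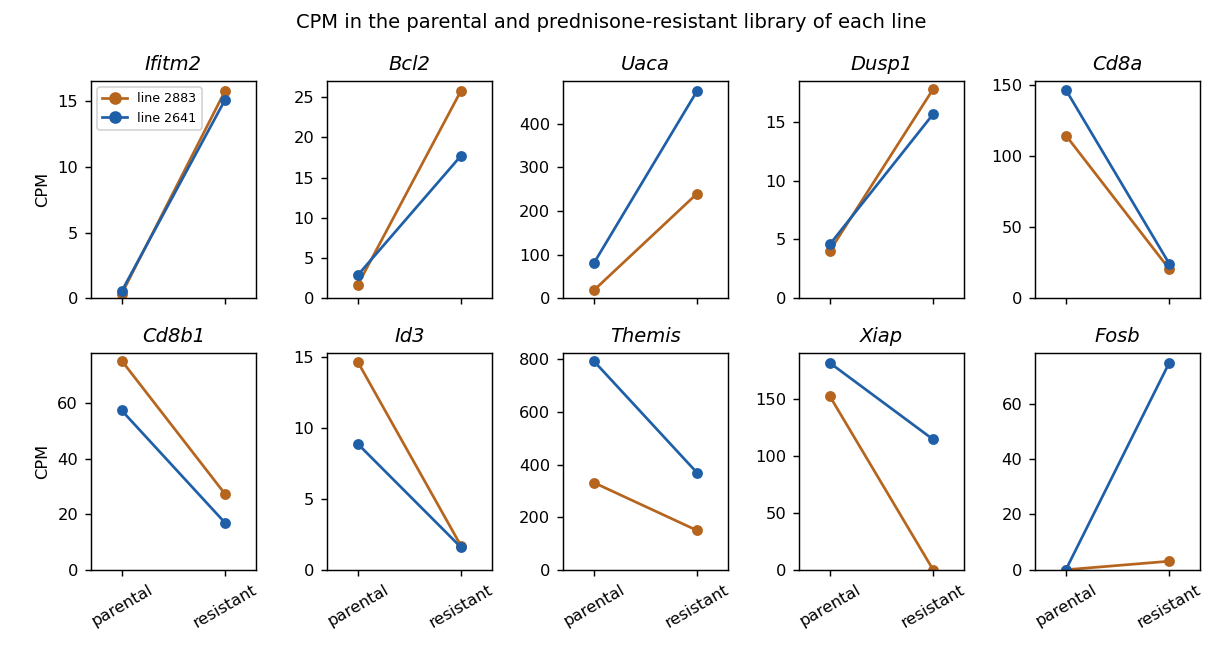
CPM of 10 genes in the parental and prednisone-resistant library of line 2883 (brown) and line 2641 (blue), on linear axes that start at 0. Each point is 1 library. Ifitm2, Bcl2, Uaca and Dusp1 were higher and Cd8a, Cd8b1, Id3 and Themis lower in both derivatives, whereas Xiap reached 0 only in 2883 and Fosb was at 74.8 CPM in 2641 and 3.08 CPM in 2883.

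Both derivatives had less of the CD8 coreceptor, which marks the double-positive and CD8 stages of thymocytes. Cd8a (mm10 chromosome 6, 71373427 to 71379174, plus strand) was at 114 and 20.5 CPM in 2883 (5.56-fold lower) and at 146 and 24.3 CPM in 2641 (6.01-fold lower). Cd8b1, the partner chain at the same locus, was at 75.4 and 27.4 CPM in 2883 (2.75-fold lower) and at 57.5 and 17.0 CPM in 2641 (3.38-fold lower). In limma the changes were -2.55 ± 0.54 and -1.26 ± 0.27, with unadjusted p of 0.000969 and 0.00121 and an adjusted p of 0.391 for both, so neither passed. The range of Cd8a in the other 12 libraries was 2.72 to 773 CPM.

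Of 29 thymocyte surface genes measured in each line, 6 were higher and 7 lower in 2883, and 8 were higher and 8 lower in 2641, against 8.73% and 6.07% of all genes in 2883 and 4.02% and 8.84% in 2641. Those called the same way in both lines were 4 higher (Cd5, Cd69, Ly6d and Pdcd1) and 3 lower (Cd8a, Cd8b1 and Cd52). Cd5 and Pdcd1, both restraints on receptor signalling, stayed under 4 CPM.

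Cd69, an early activation marker, went from 0 reads to 2.68 CPM in 2883 and from 3.08 to 17.5 CPM in 2641, and Ly6d, a lymphoid progenitor antigen, was 3.03-fold and 5.66-fold higher. Ctla4, an inhibitory receptor, was 2.51-fold lower in 2883 and 4.36-fold higher in 2641.

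Transcription factors of the T lineage gave 3 shared calls among the 26 measured in both lines, 1 higher and 2 lower, beside 1.14% and 1.47% of all genes. Id3, an inhibitor of E proteins that is induced by receptor signals, was at 14.7 and 1.69 CPM in 2883 (8.69-fold lower). In 2641 it was at 8.88 and 1.58 CPM (5.61-fold lower). Its limma change was -2.43 ± 0.75, with an adjusted p of 0.488. Id3 was also at least 2-fold lower in 5 of the 9 derivatives resistant to other drugs, and higher in none. Tal1, a T-ALL oncogene, was at 0.988 and 2.62 CPM in 2883 and at 0.376 and 5.75 CPM in 2641, 2.65-fold and 15.3-fold higher from a low level.

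In T cell receptor signalling, 8 of 32 measured genes were lower and 1 higher in 2883, and 3 of 33 were lower and 1 higher in 2641. Of all genes, 6.07% were lower in 2883 and 8.84% in 2641, close to the share of the list in 2641. Themis, a signalling adaptor needed for positive selection, was at 331 and 150 CPM in 2883 (2.22-fold lower) and at 794 and 369 CPM in 2641 (2.15-fold lower). Its limma change was -0.80 ± 0.17, with an unadjusted p of 0.0011 and an adjusted p of 0.391. Txk, a Tec family kinase, was 2.74-fold and 3.76-fold lower, and Cblb, a ubiquitin ligase that limits receptor signals, was 2.09-fold higher in both. Cblb lies on chromosome 16 between 50 and 60 Mb, where 31 measured genes had a median log2 ratio of 0.77 in 2883. In 2641, 27 genes there had a median of 0.19.

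Most variable segments of the T cell receptor beta chain were lower in 2883. Of 15 variable segments of all chains measured there, 11 were lower and 1 higher, beside 6.07% and 8.73% of all genes. Of 11 measured in 2641, 4 were lower and 1 higher, beside 8.84% and 4.02%. The lower segments were all of the beta chain, and the higher ones, Trgv2 in 2883 and Trgv4 in 2641, of the gamma chain. In the derivative of 2883 the segments from Trbv12-1 to Trbv20 had 0 reads. Trbv5 and Trbv31, on either side of these, had 140 and 195 reads and 444 and 418 reads in 2883. Trgv2 and the gamma constant gene Trgc2 were 2.86-fold and 3.02-fold higher in 2883. Trbc1, a constant gene of the beta chain, went from 124 CPM to 0 reads in 2883, at least 712-fold lower, and was at 320 and 349 CPM in 2641. Trbc1 was also at 0 reads in the etoposide-resistant derivative of 2883 and at 0.247 CPM in the vincristine-resistant one, whereas the cytarabine-resistant one had 503 CPM. Trbc2, the other beta constant gene, was at 328 and 85.1 CPM in 2883 (3.86-fold lower) and at 197 and 170 CPM in 2641. Trbv12-1 went from 23.2 CPM to 0 reads in 2883 and was at 117 and 133 CPM in 2641. Reads of near-identical segments can be split between them by the counting, so single segments are uncertain.

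The RAS and MAP kinase list gave 5 shared calls of 31, 3 higher and 2 lower, beside 1.14% and 1.47% of all genes. Beside Dusp1, the feedback inhibitors Dusp6 and Spry1 were higher in both. Dusp6, the phosphatase of ERK, was at 1.15 and 3.08 CPM in 2883 (2.67-fold) and at 1.73 and 5.28 CPM in 2641 (3.05-fold). Spry1, an inhibitor of receptor tyrosine kinase signals, was at 3.29 and 6.75 CPM in 2883 (2.05-fold) and at 11.1 and 29.6 CPM in 2641 (2.67-fold), with a limma change of 0.92 ± 0.19 (unadjusted p 0.000932, adjusted p 0.391). Rasa3, a RAS GTPase-activating protein gene, was 3.52-fold and 2.89-fold lower, and Dusp5, a nuclear ERK phosphatase, 14.2-fold and 4.99-fold lower. Rasa3 was also at least 2-fold lower in 5 of the 9 derivatives resistant to other drugs, and higher in none.

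Immediate early genes, which mitogens switch on within minutes, were called higher in 3 of 11 measured in 2883 and 6 of 12 in 2641, beside 8.73% and 4.02% of all genes, with median log2 ratios of -0.21 and 0.96. In each line 1 member was called lower, beside 6.07% and 8.84% of all genes. Jun, a subunit of AP-1, was at 19.0 and 44.0 CPM in 2883 (2.31-fold) and at 24.8 and 112 CPM in 2641 (4.51-fold). Fosb, another subunit, had 0 reads in the parental library of 2883 and 3.08 CPM in the derivative, and went from 0.0752 to 74.8 CPM in 2641. Fos was at 0.349 CPM in the derivative of 2883 and went from 0.0752 to 14.5 CPM in that of 2641. Fosb was also at least 2-fold higher in 5 of the 9 derivatives resistant to other drugs. The methotrexate-resistant derivative of 2883 had 17.7 CPM of it. In those 9, Fos was higher in 4 and lower in 1, and Jun higher in 1 and lower in 3. Handling of a culture before lysis is known to move these genes, and its part here was not tested.

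Genes of cytokine receptors and their JAK-STAT signalling were called in both directions. Of 22 measured in 2883, 3 were higher and 4 lower, beside 8.73% and 6.07% of all genes. Of 23 in 2641, 3 were higher and 5 lower, beside 4.02% and 8.84%. Il6ra, the interleukin-6 receptor, was at 9.72 and 1.86 CPM in 2883 (5.22-fold lower) and at 10.7 and 1.48 CPM in 2641 (7.23-fold lower). Socs2, a feedback inhibitor of STAT signals, was 11.7-fold lower in 2883 and 9.30-fold higher in 2641.

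Of the interferon and MHC genes measured in both lines, 3 of 23 were shared, 2 higher and 1 lower, beside 1.14% and 1.47% of all genes. Beside Ifitm2, the interferon-induced GTPase gene Mx1 was higher, from 0.659 to 27.0 CPM in 2883 and from 0 reads to 4.43 CPM in 2641. H2-K1, a classical MHC class I gene, was 5.38-fold and 91.6-fold lower, from 1.56 and 9.67 CPM. H2-K1 was also at least 2-fold lower in 6 of the 9 derivatives resistant to other drugs, and higher in none. MHC genes have close copies, between which reads may be split.

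Genes of glycolysis and hypoxia went in opposite directions in the lines. Of 34 measured in 2883, 7 were higher, none was lower and 28 lay above the parental level, with a median log2 ratio of 0.50, beside 8.73% of all genes higher and 6.07% lower. Of 32 measured in 2641, none was higher, 12 were lower and 1 lay above, with a median of -0.78, beside 4.02% higher and 8.84% lower. Vegfa, a hypoxia-induced growth factor, was at 28.0 and 97.0 CPM in 2883 (3.46-fold higher) and at 53.5 and 10.1 CPM in 2641 (5.31-fold lower). Slc2a3, a glucose transporter, was 4.56-fold higher in 2883 and 3.96-fold lower in 2641. Bnip3 and Adm were called in opposite directions in the same way. No gene of the list passed the limma test of the difference between the lines. The density of the cultures at harvest is not given in the sources used here.

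**Figure D5:**
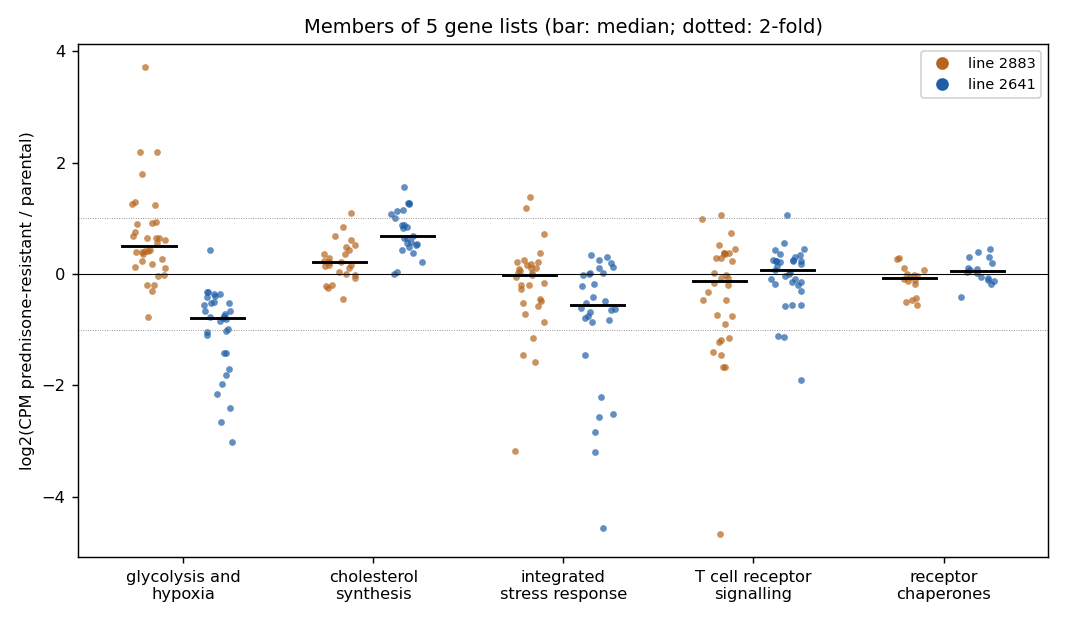
Each point is 1 measured gene of 5 lists, with its log2 ratio of CPM (derivative over parental) in line 2883 (brown) and line 2641 (blue). Bars are medians and dotted lines mark 2-fold. Glycolysis and hypoxia genes lie mostly above 0 in 2883 (median 0.50) and below 0 in 2641 (median -0.78), and cholesterol genes lie above 0 in 2641 (median 0.69).

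Most genes of cholesterol synthesis lay above the parental level in both lines. Of 25 genes measured, 18 lay above the parental level in 2883 and 25 in 2641, with medians of 0.22 and 0.69, and 1 and 8 were called higher and none lower, beside 8.73% and 4.02% of all genes higher. Nsdhl, a sterol dehydrogenase of the pathway, was at 43.8 and 94.2 CPM in 2883 (2.15-fold) and at 32.5 and 69.0 CPM in 2641 (2.12-fold), with a limma change of 0.52 ± 0.17 and an adjusted p of 0.488. Of the list, 9 genes had an unadjusted limma p under 0.05 and all 9 were higher, beside 4.43% of all tested genes, and none passed after adjustment.

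Genes of the integrated stress response, which ATF4 drives when amino acids are short, had medians of -0.03 in 2883 and -0.56 in 2641, with 4 of 31 and 7 of 30 called lower, beside 6.07% and 8.84% of all genes. In 2883, 2 were called higher, and in 2641 none, beside 8.73% and 4.02% of all genes. Cebpb, a leucine zipper factor, went from 1.57 CPM to 0 reads in 2883 and from 2.03 to 0.223 CPM in 2641. Cth, which makes cysteine, was 2.98-fold and 35.7-fold lower. Of 27 members tested in limma, 7 had an unadjusted p under 0.05 and all 7 were lower, beside 4.74% of all tested genes. None passed after adjustment.

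For the 80 genes of cytosolic ribosomal proteins the median log2 ratio was -0.55 in 2883, where 6 lay above the parental level, and -0.12 in 2641, where 27 did. At 2-fold, 4 were lower in 2883 and 1 in 2641, beside 6.07% and 8.84% of all genes. In 2641, 1 was higher, beside 4.02%. In limma 28 had an unadjusted p under 0.05, all lower, beside 4.74% of all tested genes, and none passed after adjustment. Ribosomal protein mRNA has many pseudogene copies, and the values depend on how the counting assigned shared reads.

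The genes with the largest ratios in a single line were mostly not shared. In the derivative of 2883, 21 genes went from at least 10 CPM to 0 reads and 9 appeared at 10 CPM or more from 0 reads. In that of 2641 these counts were 6 and 2. Gria2, a subunit of the AMPA glutamate receptor, was at 73.4 CPM in the derivative of 2883 and had 0 reads in all of the other 15 libraries. Col6a1 and Col6a2, chains of collagen VI that lie side by side, went from 0 reads to 45.5 and 23.7 CPM in 2883 and had 0 reads in both libraries of 2641. The vincristine-resistant derivative of 2883 had 6.85 and 6.78 CPM of them. Inhbb, a subunit of activin, went from 0.659 to 47.9 CPM, and Clec11a, a growth factor gene, from 0.0824 to 27.6 CPM. Other derivatives of 2883 were also high, with 82.3 CPM of Inhbb after methotrexate and 40.6 and 6.52 CPM of Clec11a after vincristine and etoposide.

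Other genes fell to or near 0 reads in the derivative of 2883 and not in that of 2641. Ppp1r9b, the phosphatase scaffold spinophilin, went from 78.4 to 0.174 CPM, whereas every library outside these pairs had at least 30.8 CPM. Ctsz, a lysosomal protease, went from 49.2 CPM to 0 reads and was at 41.7 and 53.4 CPM in 2641. Trim35, a ubiquitin ligase gene, went from 38.4 CPM to 0 reads, as it did in the methotrexate-resistant derivative of 2883, and was at 140 and 158 CPM in 2641. Bex1 went from 42.6 CPM to 0 reads and was at 89.9 and 131 CPM in 2641. The 4 other derivatives of 2883 had at most 0.210 CPM of Bex1.

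In the derivative of 2641, Xist, the RNA that silences 1 X chromosome in female cells, went from 201 to 0.158 CPM, 1272-fold lower, while 2883 had 2233 and 3150 CPM. Xist was also under 2 CPM in both libraries of line 7298, in the methotrexate-resistant derivative of 2883 and in the vincristine-resistant derivatives of 2696 and 2869. Adam19, a membrane protease, went from 76.0 to 0.116 CPM in 2641 and was 3.26-fold higher in 2883. Stc2, a secreted glycoprotein, went from 38.8 to 0.158 CPM in 2641 and was at 25.2 and 31.4 CPM in 2883. It had 0 reads in the etoposide-resistant derivative of 2696. Scn4b, a sodium channel subunit, was 56.6-fold higher in 2641 and 2.16-fold higher in 2883. Cdkn1a, the p21 inhibitor of the cell cycle, was 15.1-fold lower in 2883 (17.5 and 1.16 CPM) and 3.03-fold higher in 2641 (15.0 and 45.3 CPM). The 4 other derivatives of 2883 had 0.548 to 5.05 CPM of Cdkn1a.

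The difference between the lines was tested in limma with a term of its own, which assumes that each derivative, a single library, varies like the others. None of 9309 genes passed after Benjamini-Hochberg adjustment (0%), and 373 had an unadjusted p under 0.05 (4.01%), with 156 relatively higher in 2641 (1.68%) and 217 lower (2.33%). Leaving out predicted gene models, those with the smallest p that were relatively higher in 2641 were Xiap (1.61 ± 0.23, adjusted p 0.53), Trim35, Fosb and Ctsz, and those relatively lower were Zfp36l2 (-3.92 ± 0.63, adjusted p 0.53), Renbp, Klhl22 and Axin2. With a pseudocount of 0.1 limma called 4 genes and on log2(CPM + 1) 5, Xiap, Trim35 and Ctsz among both.

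Set against the mean of the 4 other drugs, the prednisone term gave 3 called genes of 9309 in limma (0.0322%), 1 higher (0.0107%) and 2 lower (0.0215%). An unadjusted p under 0.05 was reached by 691 genes (7.42%), 398 of them higher (4.28%) and 293 lower (3.15%). Derivatives of 2883 share its parental library. Lmcd1 was higher by 1.17 ± 0.14 (adjusted p 0.0440), a call lost in 21 of 24 alternatives, with an adjusted p in limma of 0.0182 to 1.00. Nr3c1 was lower by -1.99 ± 0.26 (adjusted p 0.0583). Among the genes called lower was Zcchc9, at -1.45.

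Zcchc9 was not called in either prednisone pair. It was at 48.6 and 42.6 CPM in 2883 and at 38.1 and 44.2 CPM in 2641. The methotrexate-resistant library of 2883 had 2640 CPM of it. With the mean of the 3 drugs other than methotrexate, an alternative added after these values were seen, limma called no gene, 683 had an unadjusted p under 0.05, and the adjusted p was 0.0720 for Lmcd1.

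Mybl2 and Nepro had the next smallest p among genes that were higher against the other drugs. Mybl2, a cell cycle transcription factor, was at 83.0 and 242 CPM in 2883 (2.92-fold) and at 81.0 and 152 CPM in 2641 (1.88-fold), above the 46.1 to 139 CPM of the other 12 libraries in both derivatives, with a limma change of 1.19 ± 0.21 (adjusted p 0.336). Nepro, a nucleolar protein gene, was at 25.7 and 53.4 CPM in 2883 and at 20.5 and 36.4 CPM in 2641, also above the other libraries (17.1 to 33.9 CPM). In line 2883 both genes lie in windows of raised expression, given next.

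Expression shifted along parts of chromosomes in the derivative of 2883, as it did in derivatives resistant to other drugs. Over windows of 10 Mb with at least 20 measured genes, 8 of 214 had a median log2 ratio of 0.4 or more in the derivative of 2883 and 6 had -0.4 or less, while in that of 2641 the counts were 0 and 3 of 212. The raised windows in 2883 lay on chromosome 2 from 140 to 170 Mb, on chromosome 6 and on chromosome 16 from 30 to 60 Mb, where medians reached 0.83. Mybl2 lies in the window of chromosome 2 at 160 to 170 Mb, where 69 genes had a median of 0.60, and Nepro in that of chromosome 16 at 40 to 50 Mb, with a median of 0.46. By the same limits, the 9 derivatives resistant to other drugs had 1 to 17 raised and 1 to 20 lowered windows, of 207 to 216 each.

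On chromosome 13 from 20 to 80 Mb, 251 of 289 genes lay below the parental level in the derivative of 2883, with a median of -0.55, and 175 of 293 in that of 2641, with a median of -0.11. The 4 other derivatives of 2883, which share the parental library, had medians of -0.24 to -0.77 over this span, with unlike profiles along it. From 20 to 30 Mb the prednisone-resistant derivative had a median of -0.59. Those resistant to etoposide, vincristine, cytarabine and methotrexate had 1.13, 1.42, -0.64 and -0.12. From 70 to 80 Mb the prednisone-resistant derivative had -0.58, and the others, in the same order, -0.16, 0.08, 0.27 and -0.29. In each window between these, the medians of all derivatives of 2883 were negative. In the prednisone-resistant derivative of 2641, the median was -0.53 from 60 to 70 Mb, with 47 of 65 genes below the parental level. That window is 1 of the 3 counted above at -0.4 or less. From 70 to 80 Mb the median in 2641 was -0.28, with 30 of 36 below. Its windows from 20 to 60 Mb had medians of -0.21 to 0.11. These windows were examined after medians by chromosome had been seen. DNA copy number was not measured in the files used here.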

How the data were processed

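RNA from 16 mouse T-ALL cultures, 1 library each, was sequenced after an Illumina Stranded mRNA preparation, per the labels' protocols. Cutadapt, STAR, Partek and mm10 appear in the submitters' processing notes, with no versions. The counting method and annotation: not given in the sources used here. The authors deposited FPKM for 13474 genes, in which the length is the whole gene span with introns and 0.1 read was added throughout, as the values show.

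CPM were computed here as FPKM times length, and reads from the step between low values. From 73.7% to 75.7% of those values lay within 0.05 of a whole read in these 4 libraries, too few for a count test. Ratios within a line carry 95% exact (Clopper-Pearson) intervals, and a bound against 3 reads where a library had 0. Both cover counting error only. With 2 pairs an exact permutation test cannot go below a two-sided p of 0.5.

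Limma 3.58.1 in R 4.3.3 (lmFit, eBayes with a trend) was run on log2(FPKM + 1) of the 9309 genes that reached 1 FPKM in 2 or more libraries, with 1 term per line and 1 per drug and 6 residual degrees of freedom (5 with the term for the difference between the lines). P-values are two-sided and adjusted by Benjamini-Hochberg, with a threshold of 0.05. Fold changes on this scale understate those of low genes. P-values set each change against the spread left among the 16 libraries after the line and drug terms. No culture has a replicate library, so this is not the spread between replicates. The script was tested on simulated data.

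The line number pairs a derivative with its parent, per the labels. Deviations correlated with those of the own parental library at r = 0.37 in 2883 and 0.56 in 2641, the highest among the 5 parental libraries in both. The mean chi-square per gene within the pairs was 59.6 and 54.9, so neither pair is 1 library deposited in duplicate.

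The members, the 38 gene lists and the rules were chosen with earlier results of these data known. Genes named were those limma called, the 10 per direction with the largest smaller ratio among genes called the same way in both lines with at least 3 CPM, the 8 per direction with the largest ratio per line at 10 CPM or more, members of the receptor, glucocorticoid-induced and BCL2 lists, up to 4 shared and 2 opposite members of any other list, and the 5 per direction with the smallest p in the other contrasts. Some genes under these rules are not reported here by name and stand only in the counts. Alternatives changed the line term, pseudocount, filter, scaling, trend, fold limit, CPM minimum and libraries used. Upstream sequences are from RefSeq on GRCm38.p6, where 9613 of 13474 symbols matched.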

Additional observations from a re-analysis of the deposited data

Results flagged for a closer look

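Among the 5 parental libraries, Lmcd1 had 1 value far from the rest on the CPM scale. Line 2696 was at 221 CPM, line 7298 at 18.4 CPM and the others at most 2.88 CPM, and the gap between the highest value and the next took 0.917 of the whole range. The rule was applied to CPM and not to logs. The values ran from 0.0741 to 221 CPM, so the highest sets most of the range. The rule is meant to mark about 1 in 20 groups by chance, which was not checked for values this skewed. Both prednisone-resistant libraries lay below the library of 2696.

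The prednisone effect also differed from the mean of the other drugs in limma for Zcchc9 and Lmcd1. The log2 difference was -1.45 for Zcchc9 and 1.17 for Lmcd1. Without methotrexate it was -0.10 for Zcchc9, with an adjusted p of 0.917 in limma, and 1.28 for Lmcd1, with an adjusted p of 0.0720 in limma.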

How the results depend on the processing

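Of 647 alternatives for 28 results on single genes, 548 gave the same side of the threshold, 87 lost it, 12 gained it and none reversed. The number of genes limma called for prednisone against parental was 0 with no replicate block, 1 with no filter, 0 on log2(CPM + 1), 0 with the Mcm2cre/cre lines only and 0 with the 4 libraries only, which leave 1 residual degree of freedom, and 0 to 4 with single libraries left out. It was 0 without parental or cytarabine 7298, parental 2696, etoposide 2883 or 2696, prednisone 2883 or vincristine 2869, and 4 without cytarabine 2869. Against the other drugs it was 0 with no replicate block, 0 with a pseudocount of 0.1, 12 with no filter, 0 on log2(CPM + 1), 0 with no mean-variance trend, 0 with the Mcm2cre/cre lines only and 0 with the mean of 3 other drugs, and 0 to 4 with single libraries left out. There it was 0 without either library of 7298, parental 2883 or 2869, cytarabine 2883 or 2869, etoposide 2883 or 2696 or prednisone 2883, and 1 without vincristine 2696. For the difference between the lines it was 4 with a pseudocount of 0.1, 25 with no filter and 5 on log2(CPM + 1), and 0 to 1 with single libraries left out (1 without parental 2883), with 0 under no replicate block. The cause was not tested.

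Counts within a line follow the fold limit by construction. At 1.5-fold, 2121 and 1652 genes were higher and lower in 2883, 1122 and 2006 in 2641, 342 and 390 in both, and 555 opposite. At 4-fold these were 369 and 325, 142 and 389, 32 and 50, and 41. With at least 5 CPM they were 750 and 449, 297 and 636, 64 and 73, and 95. Median-of-ratios scaling gave 144 and 167 shared and 209 opposite. Each level rests on 1 library, and below about 3 reads neither presence nor a fold can be read.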

Other observations

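The share of measured genes that differed at least 2-fold from the own parental library was 14.8% in the prednisone-resistant derivative of 2883 and 12.9% in that of 2641. In the 9 derivatives resistant to other drugs it ran from 8.9% to 23.5%.

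Mitotic genes had a median log2 ratio of 0.21 in 2883, where 21 of 30 lay above the parental level, and of -0.29 in 2641, where 5 of 30 did. Nuclear genes of the respiratory chain had medians of -0.33 and -0.08, with 3 and 11 of 31 above the parental level. The 13 genes of the mitochondrial genome had medians of 0.07 and 0.53. Over all measured genes the medians were 0.058 and -0.044.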
